A study of Mus musculus with 22 samples.

Results

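The 10 genes described here encode chaperones of the endoplasmic reticulum (ER) and other genes of the unfolded protein response: Hspa5, Hsp90b1, Calr, Pdia4, Pdia6, Xbp1, Dnajb9, Herpud1, Sdf2l1 and Manf. They were chosen by name, and all 10 were found among the 52535 gene symbols of the RNA-seq count tables and among the 16765 genes that passed the filter on low counts. RNA was sequenced from E14, a mouse embryonic stem cell line derived from the blastocyst. The cells had been grown with serum, LIF, the MEK inhibitor PD0325901 and the GSK inhibitor CHIR99021. LIF and both inhibitors were then withdrawn and 2 µM retinoic acid (RA) was present for 1 day in all 4 genotypes. WT cells carried neither deletion, E1-KO and E2-KO cells lacked the element E1 or E2, which the series describes as enhancers of HoxB genes, and D-KO, not spelled out in the labels, was read as the deletion of both. Each genotype had 3 libraries. Whether a genotype was 1 clone, and whether its libraries came from separate cultures, is not stated, and p-values cover only the spread between these samples.

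Secreted and membrane proteins are folded in the ER by chaperones and by enzymes that form disulfide bonds. When unfolded proteins build up, the membrane sensors IRE1, PERK and ATF6 start the unfolded protein response. IRE1 splices the Xbp1 transcript into the form that encodes the active transcription factor, ATF6 is cut to release a transcription factor, and PERK slows translation and raises ATF4. XBP1 and ATF6 raise chaperones and the machinery of ER-associated degradation, which carries misfolded proteins to the proteasome. Early endoderm, which embryonic stem cells can form, secretes much basement membrane protein. Counts per gene do not tell spliced from unspliced Xbp1, and sensor activity was not measured.

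Promoter windows of 9 of the 10 genes were taken from RefSeq (GRCm38.p6), from 250 bases before to 50 bases after the annotated start. The ER stress response element (ERSE, the letters CCAAT and CCACG with 9 bases of any kind between them), through which ATF6 acts with the CCAAT-binding factor NF-Y, was searched on both strands together with ERSE-II (ATTGG and CCACG with 1 base of any kind between them), the XBP1 element UPRE (TGACGTGG), the C/EBP-ATF element (TGATGNAA) and the CCAAT box alone. An ERSE contains a CCAAT box, an ERSE-II contains one on its other strand, and the C/EBP-ATF match described here overlaps none of the other matches. The 5 windows with an ERSE, ERSE-II or C/EBP-ATF match are printed because these letters set them apart from nearly all other promoter windows. Each is written 5′ to 3′ on the gene's strand, with the matches in capitals. Hspa5 lies at chr2:34771840-34772139 on the plus strand, Hsp90b1 at chr10:86705395-86705694 on the minus strand, Calr at chr8:84846882-84847181 on the minus strand, Pdia6 at chr12:17266339-17266638 on the plus strand and Herpud1 at chr8:94386179-94386478 on the plus strand.
Hspa5: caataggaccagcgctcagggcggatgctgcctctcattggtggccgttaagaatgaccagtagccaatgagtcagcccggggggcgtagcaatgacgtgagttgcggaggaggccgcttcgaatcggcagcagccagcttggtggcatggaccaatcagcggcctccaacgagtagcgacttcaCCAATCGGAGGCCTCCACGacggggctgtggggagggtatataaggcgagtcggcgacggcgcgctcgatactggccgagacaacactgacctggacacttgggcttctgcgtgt
Hsp90b1: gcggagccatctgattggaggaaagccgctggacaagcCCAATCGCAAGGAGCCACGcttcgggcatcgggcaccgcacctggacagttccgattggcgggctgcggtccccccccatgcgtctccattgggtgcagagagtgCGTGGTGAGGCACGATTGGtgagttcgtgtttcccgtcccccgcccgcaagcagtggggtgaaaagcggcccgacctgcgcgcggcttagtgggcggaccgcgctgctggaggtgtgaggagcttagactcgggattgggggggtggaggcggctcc
Calr: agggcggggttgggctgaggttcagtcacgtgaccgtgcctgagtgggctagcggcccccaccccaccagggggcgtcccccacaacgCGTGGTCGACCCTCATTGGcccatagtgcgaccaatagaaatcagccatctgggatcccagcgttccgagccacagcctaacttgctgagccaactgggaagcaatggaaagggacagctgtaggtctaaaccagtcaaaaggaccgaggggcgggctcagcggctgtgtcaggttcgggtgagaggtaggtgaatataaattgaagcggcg
Pdia6: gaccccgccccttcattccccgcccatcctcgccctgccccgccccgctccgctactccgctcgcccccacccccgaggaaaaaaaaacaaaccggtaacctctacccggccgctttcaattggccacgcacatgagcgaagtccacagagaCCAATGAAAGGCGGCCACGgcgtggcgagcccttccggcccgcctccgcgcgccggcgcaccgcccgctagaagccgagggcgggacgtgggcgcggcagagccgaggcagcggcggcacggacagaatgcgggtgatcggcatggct
Herpud1: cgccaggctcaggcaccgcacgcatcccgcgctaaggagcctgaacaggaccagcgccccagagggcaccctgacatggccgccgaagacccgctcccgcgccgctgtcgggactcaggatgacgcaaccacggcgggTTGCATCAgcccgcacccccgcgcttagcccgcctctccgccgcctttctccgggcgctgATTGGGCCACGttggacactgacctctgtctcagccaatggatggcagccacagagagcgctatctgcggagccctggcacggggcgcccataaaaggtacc

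An ERSE was found in 4 of the 9 windows, those of Hspa5, Hsp90b1, Calr and Pdia6, and in 39 of the 32817 promoter windows of the table (0.119%). The Hspa5 match spans bases -65 to -47 from the start. Hsp90b1 holds a match on each strand, at -212 to -194 and at -107 to -89. The Calr match lies on the opposite strand at -162 to -144, and that of Pdia6 at -98 to -80. Herpud1 alone among the 9 has an ERSE-II, at -52 to -42, where 12 windows of the table hold one (0.0366%), and a C/EBP-ATF match at -112 to -105 on the opposite strand, which 3.97% of windows share. No UPRE was found in the 9 windows, against 0.676% of all windows. A CCAAT box was present in 8 of the 9, Xbp1 being the exception, and in 37.4% of all windows. A match describes the letters and not the binding of a factor. The genes were picked as genes of the response in which these elements act, so these shares are not a test of enrichment.

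**Figure D1:**
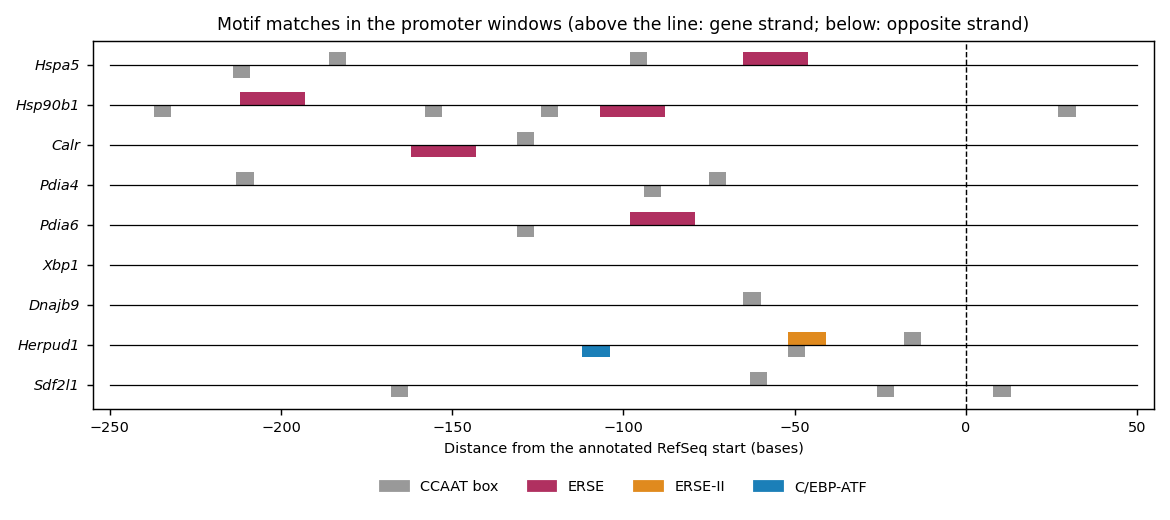
Motif matches in the 9 promoter windows, with distance from the annotated RefSeq start on the horizontal axis in bases. Blocks above a line are on the gene's strand and blocks below it on the opposite strand. The ERSE blocks (red) are in the rows of Hspa5, Hsp90b1, Calr and Pdia6, and the ERSE-II block (orange) is in the row of Herpud1.

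Libraries held 9101547 to 13007735 counts on genes. Embryonic stem cell markers were present in every library, their 6 genes summing to 1467 to 2149 CPM (normalised counts scaled to a common library size) in WT and 2627 to 3065 CPM in the KO libraries. Hoxb1, a HoxB gene, measured 17.2 to 31.4 CPM in WT and 0.186 to 1.15 CPM in the KO libraries. The WT libraries stood apart from each other: the chi-square per gene between a pair of replicates was 38.9 to 77.8 in WT and 2.20 to 3.99 within the KO genotypes. The rank correlation between the GC content of genes and their deviation in a library was -0.58 and -0.45 in WT replicates 1 and 3, 0.15 in WT replicate 2, 0.25 to 0.45 in the single deletions and -0.11 to -0.023 in D-KO. Mitochondrially encoded transcripts took 1.94% to 5.88% of WT counts, 1.36% to 1.81% of E1-KO and E2-KO counts and 2.53% to 2.69% of D-KO counts. The part of these differences in the results below was not tested beyond the fits named there. The 10 genes share the limit: their median coefficient of variation was 16.2% over WT libraries and 3.21%, 4.34% and 5.29% in E1-KO, E2-KO and D-KO.

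Together the 10 genes took a smaller share of all counts in both single deletions than in WT or D-KO. The share was 0.346%, 0.276% and 0.287% in the WT libraries, against 0.210% to 0.216% in the E1-KO libraries, 0.236% to 0.248% in the E2-KO libraries and 0.313% to 0.328% in D-KO. Hspa5, Hsp90b1 and Calr supplied 71.7% to 79.1% of it in every library. Per kilobase of exon, Calr was the highest of the 10 in all 4 genotypes, at 297 ± 27.4 CPM per kb (SD, n = 3) in WT. Hsp90b1 (186 ± 63.3) and Hspa5 (185 ± 25.9) followed in WT and did not differ beyond their spread. Dnajb9 was the lowest in all 4 genotypes, at 9.15 ± 1.76 CPM per kb in WT, next to Herpud1 at 11.04 ± 1.18. The order of the middle genes differed between genotypes: Pdia4 stood above Pdia6 in WT (109 ± 37.0 against 65.5 ± 12.1) and below it in E1-KO (54.2 ± 1.43 against 60.3 ± 0.580).

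**Figure D2:**
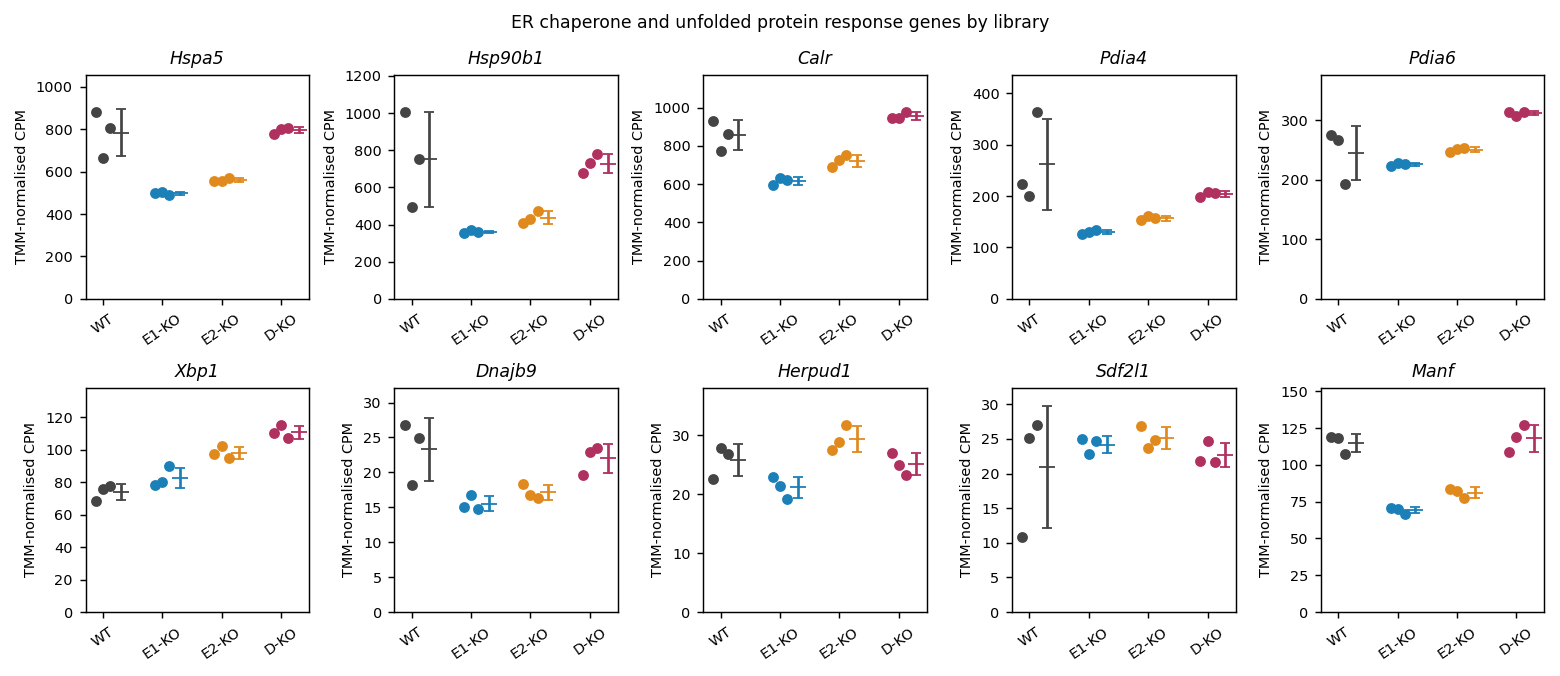
Levels of the 10 genes in each library, in TMM-normalised CPM from 0, by genotype. Points are libraries in the order of their replicate numbers and the bar beside them is the mean ± SD of 3. For Hspa5, Hsp90b1, Calr, Pdia4 and Manf the E1-KO and E2-KO points lie below all WT points, and for Xbp1 the E2-KO and D-KO points lie above them.

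Hspa5 encodes BiP, the Hsp70 chaperone of the ER, which also holds the sensors inactive. Its TMM-normalised level was 882, 666 and 804 CPM in WT replicates 1 to 3, 498, 506 and 491 CPM in E1-KO, 554, 555 and 569 CPM in E2-KO and 780.1, 802 and 804 CPM in D-KO. Both single deletions were below every WT library, and D-KO lay within the WT range. Hspa5 fell by 0.65 on the log2 scale in E1-KO (SE 0.11, adjusted p = 0.000462) and by 0.49 in E2-KO (SE 0.11, adjusted p = 0.00369), with edgeR's quasi-likelihood test and Benjamini-Hochberg adjustment over all 16765 genes, as for all adjusted p-values below. In D-KO the difference from WT was 0.021 ± 0.11 (SE, adjusted p = 0.912).

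Hsp90b1 encodes GRP94, the Hsp90 chaperone of the ER. It measured 1006, 496 and 752 CPM in WT, 354, 368 and 358 CPM in E1-KO, 406, 428 and 474 CPM in E2-KO and 677, 730.5 and 777 CPM in D-KO. The WT libraries spread over the widest range of the 4 genotypes, yet each was above all E1-KO and E2-KO libraries. It fell by 1.06 in E1-KO (SE 0.18, adjusted p = 0.000717) and by 0.79 in E2-KO (SE 0.18, adjusted p = 0.00528), and in D-KO it differed from WT by -0.045 ± 0.18 (SE). Exons of 1810014B01Rik overlap Hsp90b1 by 415 bases on the opposite strand, and reads of the pair cannot be told apart without the strand setting of the counting.

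Calr encodes calreticulin, the lectin chaperone of newly made glycoproteins and a calcium store. Its level was 930.3, 773 and 864 CPM in WT, 595, 633 and 619 CPM in E1-KO, 689.6, 727 and 752 CPM in E2-KO and 946, 943 and 977 CPM in D-KO. E1-KO was lowest, E2-KO between it and WT, and D-KO above every WT library, with no overlap between any of the 4 genotypes. Calr fell by 0.47 in E1-KO (SE 0.10, adjusted p = 0.00255). The differences from WT did not pass the threshold in E2-KO (-0.24 ± 0.10, SE, adjusted p = 0.0706) or D-KO (0.16 ± 0.10, SE, adjusted p = 0.268). The E2-KO difference was called without WT replicate 2 (-0.31, adjusted p = 0.00266) or without WT replicate 3 (-0.24, adjusted p = 0.0348). It was also called with the dependence on GC content and gene length taken out (-0.33, adjusted p = 0.0120). DESeq2 called it too (-0.26, adjusted p = 0.0235).

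Pdia4 and Pdia6 are protein disulfide isomerases, which form and rearrange disulfide bonds. Pdia4 measured 223, 199 and 364 CPM in WT, 126, 131 and 133 CPM in E1-KO, 153, 162 and 157 CPM in E2-KO and 199, 208 and 205 CPM in D-KO. E1-KO and E2-KO did not overlap with WT, in which replicate 3 was far above the other 2 libraries, while D-KO overlapped with WT. Pdia4 fell by 1.01 in E1-KO (SE 0.17, adjusted p = 0.000537) and by 0.74 in E2-KO (SE 0.17, adjusted p = 0.00460). The difference in D-KO was -0.36 ± 0.17 (SE), and without WT replicate 2 it was called at -0.52 (adjusted p = 0.00988).

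Pdia6 measured 276, 267 and 193 CPM in WT, 224, 227 and 227 CPM in E1-KO, 246, 252 and 254 CPM in E2-KO and 313, 308 and 314 CPM in D-KO. Here WT replicate 3 was the lowest of all 12 libraries, the single deletions lay inside the WT range, and D-KO lay above it. Pdia6 was not called against WT in any genotype: the estimates were -0.12 ± 0.12 for E1-KO, 0.032 ± 0.12 for E2-KO and 0.35 ± 0.12 for D-KO (SE), the last with an adjusted p of 0.0524. Without WT replicate 3 it was lower in E1-KO by -0.26 (adjusted p = 0.00765) and higher in D-KO by 0.19 (adjusted p = 0.0463). The D-KO difference was also called without WT replicate 1 (0.43, adjusted p = 0.0182) and without WT replicate 2 (0.41, adjusted p = 0.00873).

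Xbp1, the transcription factor gene, was the only member called higher than WT in the fit of 12 libraries. It measured 68.6, 76.1 and 77.8 CPM in WT, 78.0, 80.2 and 89.8 CPM in E1-KO, 97.3, 102 and 94.8 CPM in E2-KO and 110.2, 115 and 107 CPM in D-KO. In the order WT, E1-KO, E2-KO, D-KO each genotype lay above the one before it with no overlap, though the lowest E1-KO library was close to the highest WT library. It rose by 0.40 in E2-KO (SE 0.10, adjusted p = 0.00635) and by 0.58 in D-KO (SE 0.10, adjusted p = 0.000825), and the difference in E1-KO was 0.16 ± 0.10 (SE, adjusted p = 0.230). With limma voom and a weight per genotype the E2-KO rise was not called (adjusted p = 0.0572). Nor was it called by edgeR with only the 6 libraries of E2-KO and WT (0.39, adjusted p = 0.0827). Hspa5 and Xbp1 thus differed from WT in opposite directions in E2-KO.

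Dnajb9 encodes ERdj4, a co-chaperone of BiP, and Herpud1 encodes a membrane protein of ER-associated degradation. Dnajb9 measured 26.8, 18.2 and 25.0 CPM in WT, 15.0, 16.8 and 14.8 CPM in E1-KO, 18.3, 16.8 and 16.3 CPM in E2-KO and 19.6, 23.0 and 23.5 CPM in D-KO. E1-KO was below every WT library, and E2-KO overlapped with WT replicate 2. Dnajb9 fell by 0.58 in E1-KO (SE 0.16, adjusted p = 0.0112) and by 0.44 in E2-KO (SE 0.16, adjusted p = 0.0406). The call in E2-KO was lost when any 1 library other than WT replicate 2 was left out, with an adjusted p of 0.130 without WT replicate 1. Once the dependence on GC content and gene length had been taken out, Dnajb9 was not called in either single deletion (-0.22, adjusted p = 0.184, with E1 deleted and -0.15, adjusted p = 0.371, with E2 deleted).

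Herpud1, with its ERSE-II, measured 22.6, 27.8 and 26.9 CPM in WT, 22.9, 21.4 and 19.3 CPM in E1-KO, 27.4, 28.9 and 31.7 CPM in E2-KO and 26.9, 25.0 and 23.3 CPM in D-KO. All 3 KO genotypes overlapped with WT, and E2-KO lay above E1-KO and D-KO. No difference of Herpud1 from WT passed the threshold, the estimates being -0.28 ± 0.13, 0.19 ± 0.13 and -0.041 ± 0.13 (SE) in E1-KO, E2-KO and D-KO. Without WT replicate 1, Herpud1 was called lower in E1-KO (-0.36, adjusted p = 0.0434). It was also called lower in E1-KO once the dependence on GC content and gene length had been taken out (-0.42, adjusted p = 0.0172).

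Sdf2l1, which works with BiP and ERdj3, was the least settled member. It measured 10.9, 25.1 and 26.97 CPM in WT and 21.6 to 26.9 CPM in the 9 KO libraries. WT replicate 1 was far below the other 11 libraries, which did not separate by genotype. No difference was called, and the estimates against WT were 0.20 ± 0.24, 0.26 ± 0.24 and 0.11 ± 0.24 (SE). Each was negative without WT replicate 1.

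Manf encodes a small protein of the ER that is secreted under stress and protects neurons. It measured 119, 118 and 108 CPM in WT, 71.0, 70.0 and 66.7 CPM in E1-KO, 83.9, 82.4 and 77.2 CPM in E2-KO and 109, 119 and 127 CPM in D-KO. Its WT libraries lay close together, both single deletions were below all of them, and D-KO overlapped with WT, its highest library lying above the WT range. Manf fell by 0.73 in E1-KO (SE 0.10, adjusted p = 8.08e-05) and by 0.50 in E2-KO (SE 0.10, adjusted p = 0.00155), and the difference in D-KO was 0.041 ± 0.10 (SE). Exons of Dcaf1 and 4930524O07Rik overlap Manf on the opposite strand, by 146 and 166 bases.

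Against WT, 6 of the 10 genes were called lower in E1-KO and 0 higher, where 34.2% of all tested genes were called, 18.5% lower and 15.7% higher. The 6 were Hspa5, Hsp90b1, Calr, Pdia4, Dnajb9 and Manf. In E2-KO 5 were called lower and 1 higher, where 35.3% of all tested genes were called, 18.6% lower and 16.7% higher. In D-KO 1 was called, Xbp1, where 22.8% of all tested genes were called, 10.6% higher and 12.2% lower. The median difference of the 10 genes was -0.53, -0.34 and 0.031 on the log2 scale, against -0.0077, 0.0041 and -0.020 for all tested genes. The 3 comparisons share the WT libraries.

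The count in E2-KO moved more with the fit than the count in E1-KO. With only the 6 libraries of the genotypes compared, 4 genes were called lower in E1-KO (8.35% of all tested genes lower) and 1 in E2-KO (8.58% lower). Manf was called in both of those fits, with an adjusted p of 0.00851 in E1-KO and 0.0366 in E2-KO. With WT replicate 2 as the only WT library, whose spread was assumed to equal that of the other groups, the Hspa5 difference was -0.41 for E1-KO and -0.25 for E2-KO, and that of Hsp90b1 -0.45 and -0.18. The Hsp90b1 difference in E2-KO was not called there (adjusted p = 0.0561). In the same fit 5 genes were called higher in D-KO than in WT, where 34.8% of all tested genes were called and 17.7% were higher. They were Hspa5 (0.26), Hsp90b1 (0.55), Calr (0.31), Pdia6 (0.23) and Xbp1 (0.54). Once the dependence on GC content and gene length had been taken out, the Hsp90b1 difference was -0.70 for E1-KO and -0.48 for E2-KO, and the Xbp1 difference 0.25 for E2-KO, all still called. The Xbp1 call was near the threshold (adjusted p = 0.0423). It was lost when replicate number was added to that fit (0.25, adjusted p = 0.0508).

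**Figure D3:**
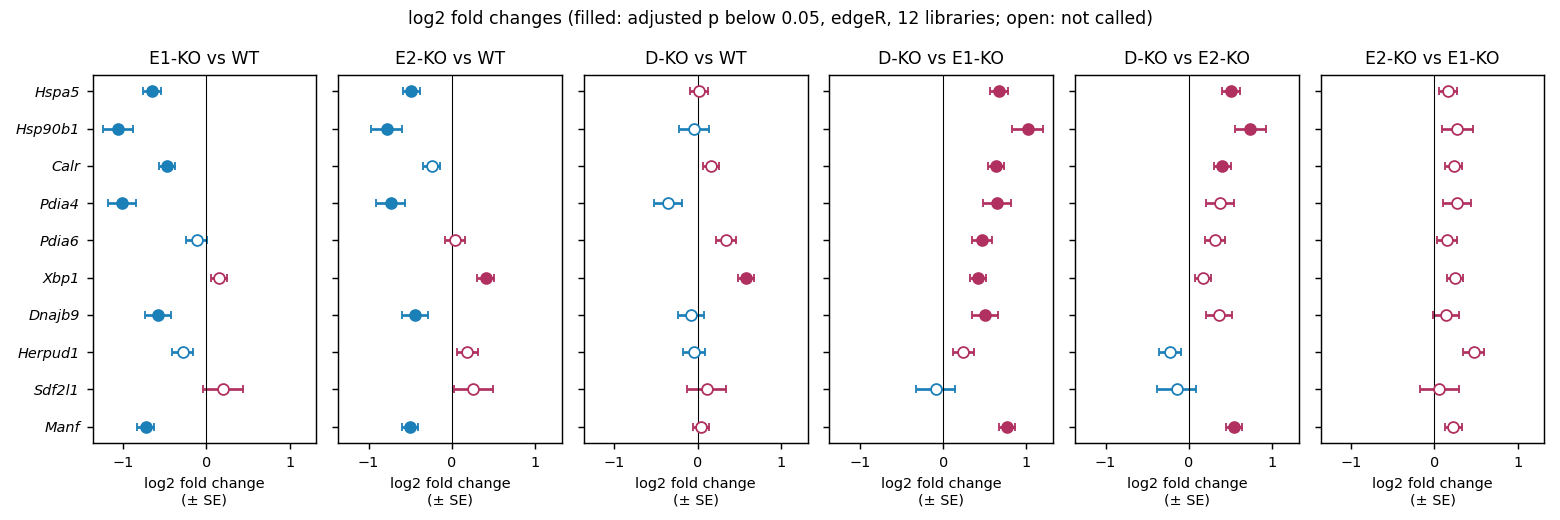
Log2 fold changes of the 10 genes in the 6 comparisons of genotypes, as estimates with standard errors. Filled points have an adjusted p below 0.05 in the edgeR fit of all 12 libraries and open points do not. In the panels of E1-KO and E2-KO against WT most filled points lie left of 0, and in the panel of D-KO against E1-KO 8 filled points lie right of it.

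Replicates lay close together within D-KO and within each single deletion, though D-KO differed from both in GC correlation and mitochondrial share. The fit of 12 libraries nevertheless tests D-KO against each single deletion with a spread shared with WT, which is too large for KO libraries. D-KO was higher than E1-KO in 8 of the 10 genes, where 15.9% of all tested genes were called and 8.43% were higher. The largest differences were those of Hsp90b1 (1.01 ± 0.18, SE, adjusted p = 0.00281), Manf (0.77 ± 0.10, adjusted p = 0.000244), Hspa5 (0.67 ± 0.11, adjusted p = 0.00119), Pdia4 (0.65 ± 0.17, adjusted p = 0.0196) and Calr (0.63 ± 0.10, adjusted p = 0.00106). Pdia6, Dnajb9 and Xbp1 were also called, at 0.46, 0.50 and 0.42. Herpud1 and Sdf2l1 were not called, at 0.24 ± 0.13 and -0.09 ± 0.24 (SE). In 9 of the 10 genes, all but Sdf2l1, every D-KO library was above every E1-KO library. The share of all tested genes separated in this way was not counted, so the 9 have no baseline. When a single E1-KO or D-KO library was left out, 4 or 5 of the 8 stayed called, Hspa5, Hsp90b1, Calr and Manf in each case.

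D-KO was higher than E2-KO in 4 genes, where 4.48% of all tested genes were called and 1.84% were higher. They were Hspa5 (0.51 ± 0.11, SE, adjusted p = 0.0171), Hsp90b1 (0.74 ± 0.18, adjusted p = 0.0362), Calr (0.40 ± 0.10, adjusted p = 0.0345) and Manf (0.54 ± 0.10, adjusted p = 0.00685). Leaving out 1 E1-KO library lowered the count to 2, leaving out 1 E2-KO library or D-KO replicate 1 or 2 to 1, and leaving out D-KO replicate 3 to 0. The comparisons of D-KO with E1-KO and with E2-KO share the D-KO libraries.

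A fit of the 9 KO libraries alone, added after these values had been seen, takes its spread from the KO genotypes and leaves the WT libraries out. In it 8 genes were higher in D-KO than in E2-KO, with 37.6% of all tested genes called and 18.8% higher: Pdia4 (0.38), Pdia6 (0.31), Xbp1 (0.17) and Dnajb9 (0.36) joined the other 4. Between D-KO and E1-KO the count stayed at 8, with 48.5% of all tested genes called and 23.5% higher.

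E2-KO was above E1-KO in the estimate of all 10 genes, and none was called in the fit of 12 libraries, where 0.596% of all tested genes were called. DESeq2 called 0 as well, and edgeR gave 4 genes an unadjusted p below 0.05, namely Calr, Xbp1, Herpud1 and Manf. The median of the 10 was 0.23, against 0.018 for all tested genes. Libraries did not overlap in 8 genes, all but Dnajb9 and Sdf2l1. Shares of all tested genes without overlap, or with an unadjusted p below 0.05, were not counted. With the 9 KO libraries alone those 8 were called higher in E2-KO, with 21.3% of all tested genes called and 11.1% higher. Herpud1 had the largest difference there (0.46, adjusted p = 0.000340) and Pdia6 the smallest (0.14, adjusted p = 0.00793). For Hspa5 the difference was 0.16 (adjusted p = 0.000461).

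Counts for the other genes of the pathway stand beside shares over all tested genes of 18.5% lower and 15.7% higher in E1-KO, 18.6% lower and 16.7% higher for E2-KO, and 12.2% lower and 10.6% higher for D-KO. Of 25 tested other ER chaperones and folding enzymes, 11 were lower and 3 higher with E1 deleted, 7 lower and 1 higher with E2 deleted and 4 lower and 1 higher in D-KO, with medians of -0.23, 9.3e-05 and -0.022. The lower share was thus 44.0% with E1 deleted and 28.0% with E2 deleted. Dnajc3, which encodes P58IPK, an ER co-chaperone of BiP and inhibitor of PERK, fell in E1-KO, E2-KO and D-KO (-0.97, -0.89 and -0.73 on the log2 scale). Its promoter window holds an ERSE. Ero1l, the oxidase that recharges disulfide isomerases, fell as well (-0.75, -0.76 and -0.61), as did Dnajc10, a disulfide reductase (-0.77, -0.71 and -0.57). These 3 genes were lower than WT in D-KO too, where Hspa5, Hsp90b1, Calr and Manf were not called. Pdia5, another disulfide isomerase, rose by 0.58 in D-KO (adjusted p = 0.00554).

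Of 25 genes of ER-associated degradation, 6 were lower and 1 higher in E1-KO, 9 lower and 2 higher in E2-KO and 6 lower and 2 higher in D-KO. Edem1, which hands misfolded glycoproteins to degradation, fell in all 3 genotypes (-0.92, -1.02 and -0.77), from 91.1 ± 3.83 CPM in WT to 47.9 ± 1.55, 44.95 ± 1.36 and 53.3 ± 1.69 CPM (SD, n = 3). Derl3, a Derlin of the ER membrane with an ERSE in its promoter window, rose by 0.76 in E2-KO (adjusted p = 0.0234) and by 1.15 in D-KO (adjusted p = 0.00314). Of 16 genes of glycosylation and the calnexin cycle, 6, 4 and 2 were lower and 0, 1 and 0 higher in E1-KO, E2-KO and D-KO. Of 23 genes of the translocon and signal peptide processing, 10, 7 and 1 were lower and 1, 3 and 3 higher, and of 22 genes of ER to Golgi transport, 8, 7 and 3 were lower and 3, 3 and 2 higher. Kdelr3, a receptor that returns chaperones such as BiP and GRP94 to the ER, rose in all 3 genotypes, by 1.08, 1.33 and 0.94.

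Of 12 genes of the sensors, their activating proteases and the partners of IRE1 and Xbp1 splicing, 1 was lower and 1 higher in E1-KO, and 2 were higher and 0 lower in E2-KO and in D-KO. The called genes were Creb3l2 (-0.43) and Atf6b (0.47) in E1-KO, Zbtb8os (0.37) and Atf6b (0.58) in E2-KO, and Zbtb8os (0.49) and Creb3l1 (0.58) in D-KO. Atf6b is a relative of ATF6, Creb3l1 and Creb3l2 encode membrane-bound transcription factors, and Zbtb8os encodes archease, a cofactor of the RNA ligase that joins spliced Xbp1 and neither a sensor nor a protease. The sign of Atf6b turned once trends in GC content and length were removed, to -0.079 for E1-KO and -0.056 for E2-KO.

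The targets of PERK and ATF4 went the other way from the chaperones in the single deletions. Of 18 genes, 13 were higher and 0 lower in E1-KO, 15 higher and 0 lower in E2-KO and 3 higher and 1 lower in D-KO, with medians of 0.82, 0.94 and 0.32. Trib3, a pseudokinase that ATF4 and CHOP induce, measured 29.6 ± 9.37 CPM in WT, against 77.2 ± 2.04 CPM with E1 deleted, 99.4 ± 3.94 CPM with E2 deleted and 36.9 ± 2.98 CPM in D-KO (SD, n = 3). It rose by 1.37 for E1-KO and by 1.74 for E2-KO, and D-KO was below E1-KO (-1.06, adjusted p = 0.00106) and below E2-KO (-1.43, adjusted p = 0.000531). Chac1, a glutathione-degrading enzyme, rose by 1.00 in E1-KO and by 1.61 in E2-KO. Atf3, a stress-induced transcription factor, rose by 1.42 in E1-KO and by 2.06 in E2-KO, from a low level in WT (1.07 to 3.29 CPM). Between D-KO and the single deletions 6 of the 18 were lower than in E1-KO and 10 lower than in E2-KO, where 7.52% and 2.64% of all tested genes were lower, and 0 were higher.

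Heat shock proteins of the cytosol and mitochondria, which belong to another stress response, were 7 lower and 0 higher of 20 in E1-KO, 6 lower and 2 higher in E2-KO and 1 lower and 4 higher in D-KO. In D-KO 8 of the 20 were higher than in E1-KO, where 8.43% of all tested genes were higher. The shares of all tested genes called lower were 18.5%, 18.6% and 12.2% against WT. Hspa8, the constitutive Hsp70 of the cytosol, fell with E1 deleted (-0.65) and with E2 deleted (-0.42), and D-KO was above E1-KO by 0.85 (adjusted p = 0.00125). Hspa1a, the stress-induced Hsp70, fell in E1-KO (-2.13) and E2-KO (-1.97).

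**Figure D4:**
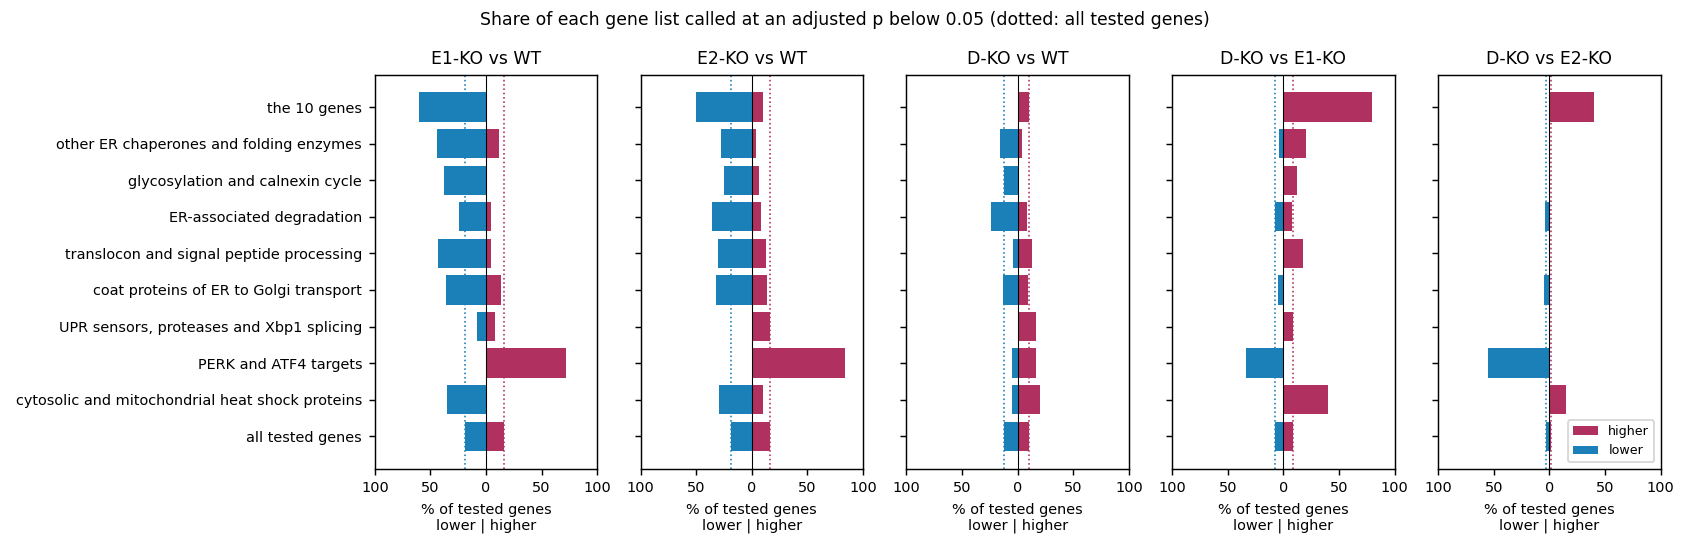
Share of the tested genes of each list called higher (red, to the right) or lower (blue, to the left) at an adjusted p below 0.05, in percent, for 5 comparisons. Dotted lines mark the shares of all tested genes. PERK and ATF4 targets are on the higher side in E1-KO and E2-KO against WT, at 72.2% and 83.3%, where the 10 genes are on the lower side, at 60.0% and 50.0%.

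Outside the 10 genes, genes with an ERSE were called in both directions. Of 18 other tested genes with one in the promoter window, 2 were lower and 3 higher in E1-KO and 1 lower and 4 higher in E2-KO. In D-KO 2 were lower and 4 higher, and the medians were 0.16, 0.013 and -0.041. The shares called were 27.8%, 27.8% and 33.3%, against 34.2%, 35.3% and 22.8% of all tested genes. Within the 10 genes, Hspa5, Hsp90b1 and Calr hold an ERSE and fell in E1-KO, while Pdia6 holds one and was not called. Pdia4 and Dnajb9 fell in E1-KO and hold no exact match in these windows.

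Markers of primitive endoderm, a secretory cell type that embryonic stem cells can give rise to, were mostly lower in all 3 KO genotypes. The 15 markers summed to 883 to 1142 CPM in the WT libraries, 525 to 548 CPM with E1 deleted, 658 to 684 CPM with E2 deleted and 693 to 722 CPM in D-KO, none of them at 0 in any genotype, and 11, 11 and 10 of the 15 were called lower and 2, 2 and 1 higher than in WT. Their sum in D-KO stayed below every WT library. Between KO genotypes, 10 of the 15 were higher and 0 lower in D-KO than in E1-KO, where 8.43% of all tested genes were higher. D-KO had 2 higher and 1 lower than E2-KO, against 1.84% and 2.64% of all tested genes. E2-KO had 3 higher and 0 lower than E1-KO, against 0.274% of all tested genes higher. In D-KO, Hspa5 and Hsp90b1 were within the WT range and Manf reached above it. Fibroblast markers summed to 18.8 to 33.7 CPM, with Lum at 0 in all groups and Dcn at 0 in all but D-KO. The part of these cell types in the chaperone differences was not tested, and in bulk RNA fewer cells of a type and less RNA per cell cannot be told apart.

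The genes most like Hspa5 in profile were sought among the 6206 tested genes whose log2 CPM averaged 5 or more. Over the 12 libraries, which share genotypes and the GC differences above, Pearson's r was highest for mt-Cytb (0.991), Hsp90b1 (0.983), Dcun1d4 (0.979), Amd1 (0.976) and Trappc13 (0.976). Calr was 28th (0.961) and Manf 73rd (0.941), while Pdia6 (0.519) and Xbp1 (0.0878) were far down the order. Over the 9 KO libraries the first 5 were Rabep1, Cebpz, Skil, Ube2n and Vdac2, at 0.994 to 0.996. There Hsp90b1 was 12th (0.993) and Pdia6 13th (0.992), and Xbp1 reached 0.860. The place of Pdia6 next to Hspa5 thus depended on whether the WT libraries were included.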

How the data were processed

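RNA-seq libraries of 4 genotypes (3 each) were used, grouped by the genotype in the labels. The 10 4C-seq and ChIP-seq samples were not analysed here. The values are raw read counts for each gene, deposited by the authors. Per the labels' protocols, Trizol was used to extract RNA. HISAT2 2.1.0, HTSeq 0.9.1 and DESeq2 1.18.1 and the build mm10 are named in the submitters' processing notes. Neither the annotation nor the counting's strand setting is given in the sources used here. HTSeq's summary lines stayed out of library sizes and tests, and reads without a feature were 1.11 to 1.20 times the counted reads.

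Genes were kept by filterByExpr, scaled by TMM and tested with edgeR 4.0.16 in R 4.3.3 (quasi-likelihood, robust, a mean per genotype over 12 libraries), and a Benjamini-Hochberg adjusted p below 0.05 was a call. Fold changes carry standard errors and CPM values SDs. Median tagwise dispersions were 0.0935 (WT) and 0.00615 (KO), so the spread shared by the genotypes is too small for WT and too large for KO libraries. The members and lists were chosen with earlier results of these data known. The text names all 10 members, up to 4 called genes of each list per comparison with WT (smallest adjusted p), the genes most like Hspa5, and Hoxb1. Once named, a gene's values are also given for other comparisons. Alternatives were DESeq2 1.42.0, limma 3.58.1 voom with a weight per genotype, other scalings, no filter, smaller sets of libraries, removal of GC content and length trends, and a replicate block. A simulation drew each gene with the same spread in all genotypes, so it does not cover the unequal spread given above. Per comparison it changed 100 genes by 1 and 100 by 2 on the log2 scale. That is far fewer genes than were called against WT, so it does not cover changes that widespread either. For E1-KO against WT with 16402 genes, edgeR recovered 75% of the genes changed by 1 and 91% of those changed by 2 (log2). It called 5 unchanged genes. For D-KO against E1-KO it recovered 65% and 97% and called 14 unchanged genes.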

Additional observations from a re-analysis of the deposited data

How the results depend on the processing

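Hspa5, Hsp90b1, Pdia4 and Manf stayed called lower in E1-KO than in WT under all 10 other settings and without any 1 library. The count of members called moved as follows, where moves that were small relative to the count come last and only in part. Against WT it went from 6 to 1 in E2-KO when only the 6 libraries compared were fitted, and from 1 to 2 in D-KO with no filter, DESeq2, limma voom, GC content and length trends removed, or those trends removed with the replicate block, and to 5 with WT replicates 1 and 3 left out together. Between KO genotypes it went from 4 to 8 (D-KO against E2-KO) and from 0 to 8 (E2-KO against E1-KO) with limma voom, with the 6 libraries alone, with WT replicates 1 and 3 left out and with the 9 KO libraries alone. Among smaller moves, the count against WT was 4 in E1-KO with the 6 libraries alone. In E2-KO it was 4 with limma voom and 7 with DESeq2. For D-KO against E1-KO it was 6 with scaling by library totals and 9 with limma voom. Of all tested genes, 751 were called for D-KO against E2-KO in the fit of 12 libraries. Limma voom called 5678, the 6 libraries alone 5872 and the 9 KO libraries alone 6124. For E2-KO against E1-KO the fit of 12 libraries called 100 and these fits 2812, 3377 and 3467. Leaving out 1 library at a time gave, against WT, 6 to 7 calls for E1-KO, 5 to 7 for E2-KO and 1 to 3 for D-KO. It gave 4 to 8 for D-KO against E1-KO, 0 to 6 for D-KO against E2-KO and 0 to 2 for E2-KO against E1-KO. The same fits called 3965 to 8753, 3969 to 8887 and 2413 to 7006 of all tested genes against WT. Between KO genotypes they called 1174 to 4934, 227 to 2875 and 16 to 722. The cause was not tested.

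Among members, signs turned only in differences not called with all 12 libraries. With GC content and length trends removed, and then with the replicate block added, Sdf2l1 was at -0.27 and -0.23 for E1-KO, -0.30 and -0.26 for E2-KO and -0.27 and -0.24 for D-KO against WT, 0.024 and 0.026 for D-KO against E2-KO, and -0.027 and -0.029 for E2-KO against E1-KO. Hsp90b1 in D-KO against WT was at 0.12 and 0.13 and Dnajb9 at 0.037 and 0.036. With WT replicates 1 and 3 left out, Sdf2l1 was at -0.046 in E1-KO and -0.15 in D-KO, Pdia6 at -0.086 in E2-KO, and Hsp90b1 at 0.55, Pdia4 at 0.033 and Dnajb9 at 0.27 in D-KO. With limma voom Hsp90b1 in D-KO was at 0.029. Among list genes the same trend removal, without and with the block, turned Atf6b to -0.079 and -0.080 in E1-KO and to -0.056 in both for E2-KO, and in E2-KO Stt3a to 0.016 and 0.019 and Hspb1 to -0.081 in both. Leaving out 1 library at a time, the ranges that crossed 0 were, for D-KO against WT, -0.082 to 0.11 for Hspa5, -0.27 to 0.22 for Hsp90b1, -0.23 to 0.031 for Dnajb9, -0.13 to 0.023 for Herpud1, -0.20 to 0.30 for Sdf2l1 and -0.012 to 0.10 for Manf. For E2-KO against WT they were -0.12 to 0.12 for Pdia6 and -0.052 to 0.45 for Sdf2l1, and for E1-KO against WT -0.10 to 0.41 for Sdf2l1.

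Replicate numbers did not pair the libraries: 0 of 18 same-numbered pairs had a correlation of deviations over 0.1, and 2 of 12 libraries correlated best with their own number. With the replicate block 6, 5 and 1 members were called against WT in E1-KO, E2-KO and D-KO, 7 and 3 for D-KO against E1-KO and E2-KO, and 0 for E2-KO against E1-KO. Scaling by library totals moved the median of all genes to -0.11 for D-KO against E1-KO, where 6 members stayed called. The number of all tested genes called went, against WT, from 5739 to 2552 for E1-KO, 5919 to 2535 for E2-KO and 3824 to 1438 for D-KO with the 6 libraries alone, and from 2674 to 7898, 751 to 6124 and 100 to 3467 between KO genotypes with the 9 KO libraries alone. Depth limits Dnajb9, Herpud1 and Sdf2l1 most, as the members with the fewest counts.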
